A study of Drosophila melanogaster with 2 samples.

Results

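The 43 genes described here are neuronal effector genes of Drosophila melanogaster, among the 13945 protein-coding genes that the Ensembl annotation places on the 6 chromosomes used. They were chosen by name and not by their values, though with earlier results of these data known. They encode 11 parts of the vesicle release machinery, 10 voltage-gated or related channel subunits, 8 enzymes and transporters of transmitters, 12 transmitter receptor subunits and 2 further neuronal proteins. For each gene, regions were taken whose summit lay within 1 kb of an annotated transcription start site (TSS), and then those whose summit lay in the gene body. All 43 symbols matched a gene.

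At a chemical synapse, a voltage-gated calcium channel opens on arrival of an action potential, and calcium lets vesicles held by a SNARE complex fuse at the active zone. Transmitter then opens or activates receptors on the next cell, and transporters take it up again. The transcription factors Gcm and Gcm2 share a zinc-binding DNA-binding domain and act in the fly embryo in glia and in hemocytes, the blood cells. Loss of gcm function turns presumptive glia into neurons, so effector genes of mature neurons form one side of the cell fate choice for which the gcm genes are known.

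The measurement was chromatin immunoprecipitation followed by sequencing (ChIP-seq). The flies came from a transgenic line that stably expresses Gcm2 with GFP at its C terminus, and the immunoprecipitation used an antibody against GFP. Embryos of both sexes, 0 to 24 h old, were used whole, and their chromatin was sonicated to 200 to 800 bp. The 2 libraries, biological replicates 2 and 3, form 1 group, and a library without the tag was not analysed here. All embryos carried the transgene, the labels do not say whether the tagged protein was at its natural level, and neurons and glia were not separated. In whole embryos, binding in few cells and weak binding in many cannot be told apart.

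Regions are given in the genome build dm6, from 4 lists. Replicate 2, replicate 3 and the pooled replicates each have a list of 30000 candidates, background regions included, and a list of 2177 peaks was kept by the irreproducible discovery rate (IDR), a method that compares the order of regions between replicates. The IDR peaks were the 2177 strongest pooled candidates, with signal values from 57.8 to 1029 and a median of 82.4, and the next candidate had a signal of 57.7. Rank 1 is the strongest region of a list by signal. The signal of a region is the authors' own value and has no replicate error, so ranks and signals are compared within a list. Read depth is unknown, and intervals cover counting error only.

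Sequences are shown for both members with an IDR peak in the gene body (ChAT and nAChRalpha5), for 3 of the stronger candidates near a member's TSS (Hk, Syx1A and eag), for the strongest other candidate in a gene body (Syn), and for the places where a GCM octamer lay at a member's candidate (cpx and Sh). Each of the first 6 runs 75 bp to either side of a summit. The last pair are 28-base windows centred on the octamer. All are dm6 reference sequence from RefSeq Release 6, written 5′ to 3′ on the strand of the named gene. Capitals mark TAATTA in nAChRalpha5, TATCGATA in eag and the GCM octamers of cpx and Sh, and sequences without capitals held none of the 6 motifs searched.
ChAT, chr3R:18719866-18720016, plus strand: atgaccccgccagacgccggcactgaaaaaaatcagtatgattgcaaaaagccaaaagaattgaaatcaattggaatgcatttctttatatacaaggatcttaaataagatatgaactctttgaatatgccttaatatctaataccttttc
nAChRalpha5, chr2L:14047310-14047460, plus strand: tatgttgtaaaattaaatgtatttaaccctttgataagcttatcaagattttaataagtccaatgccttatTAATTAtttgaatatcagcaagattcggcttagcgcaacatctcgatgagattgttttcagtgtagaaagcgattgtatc
Hk, chrX:10263619-10263769, minus strand: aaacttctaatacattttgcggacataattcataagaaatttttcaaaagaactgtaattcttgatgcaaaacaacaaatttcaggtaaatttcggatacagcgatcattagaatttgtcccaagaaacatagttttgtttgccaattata
Syx1A, chr3R:24106403-24106553, minus strand: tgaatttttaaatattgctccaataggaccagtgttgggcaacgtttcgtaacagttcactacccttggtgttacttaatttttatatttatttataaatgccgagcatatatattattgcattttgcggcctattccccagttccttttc
eag, chrX:14955243-14955393, plus strand: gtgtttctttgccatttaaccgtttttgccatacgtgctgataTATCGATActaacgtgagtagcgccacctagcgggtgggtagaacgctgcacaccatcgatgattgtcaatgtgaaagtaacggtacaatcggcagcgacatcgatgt
Syn, chr3R:10213579-10213729, plus strand: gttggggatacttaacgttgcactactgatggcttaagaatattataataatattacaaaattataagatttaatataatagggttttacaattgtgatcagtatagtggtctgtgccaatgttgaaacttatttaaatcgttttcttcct
cpx, chr3R:4280353-4280380, plus strand: ttcggtttgtATACGGGTccgtgacgag
Sh, chrX:18006823-18006850, minus strand: ggtggcagcaATACGGGCgccattagtc

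At none of the 43 members was there an IDR summit within 1 kb of a start site. A count of 0 allows a share of up to 6.98% at 3 counts of the total, and the upper bound of the 95% Wilson interval was 8.20%. Over all protein-coding genes, 12.7% had one (1766 of 13945). The same count was 0 at 500 bp and at 2 kb, and also where any overlap of a peak with the 1 kb window was counted. Among the 25 members that had a pooled candidate near a TSS, 0 had an IDR peak there, beside 20.2% of the 8728 genes with such a candidate. Ranked alone, replicate 3's 2177 strongest regions also reached 0 members, beside 12.7% of all genes, whereas those of replicate 2 reached 2 members, Hk and Syx1A, beside 12.8%.

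Both IDR summits in a member's gene body lay close to the start of another gene. Such a summit was in 2 of 43 members (4.65%, 95% Wilson interval 1.28 to 15.5%), beside 7.08% of all protein-coding genes. ChAT, which encodes choline acetyltransferase, the enzyme that makes acetylcholine, held a peak at chr3R:18719709-18720172 with a signal of 75.0 at rank 1311. Replicate 2 had the region at rank 1256 with a signal of 40.8, and replicate 3 at rank 2060 with a signal of 29.6, so both libraries had it among their 2177 strongest. The summit lay 14440 bp downstream of the ChAT TSS, in a ChAT intron, and within an exon of the long noncoding RNA lncRNA:CR46265, 318 bp from the start of that RNA.

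The peak in nAChRalpha5, a nicotinic acetylcholine receptor subunit, lay at chr2L:14047153-14047616 with a signal of 76.1 at rank 1273. Replicate 2 had it at rank 1670 with a signal of 35.4, and replicate 3 at rank 1156 with a signal of 39.2. Its summit was in an intron, 7215 bp downstream of the receptor gene's TSS and 197 bp upstream of the TSS of NimC4, a gene nested in that intron. NimC4 encodes a phagocytic receptor of glia and macrophages that takes part in the clearance of dying cells. Where a summit was counted for a gene only if the nearest protein-coding TSS was its own, a rule chosen after seeing the data, 0 members had an IDR summit in the gene body.

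**Figure D1:**
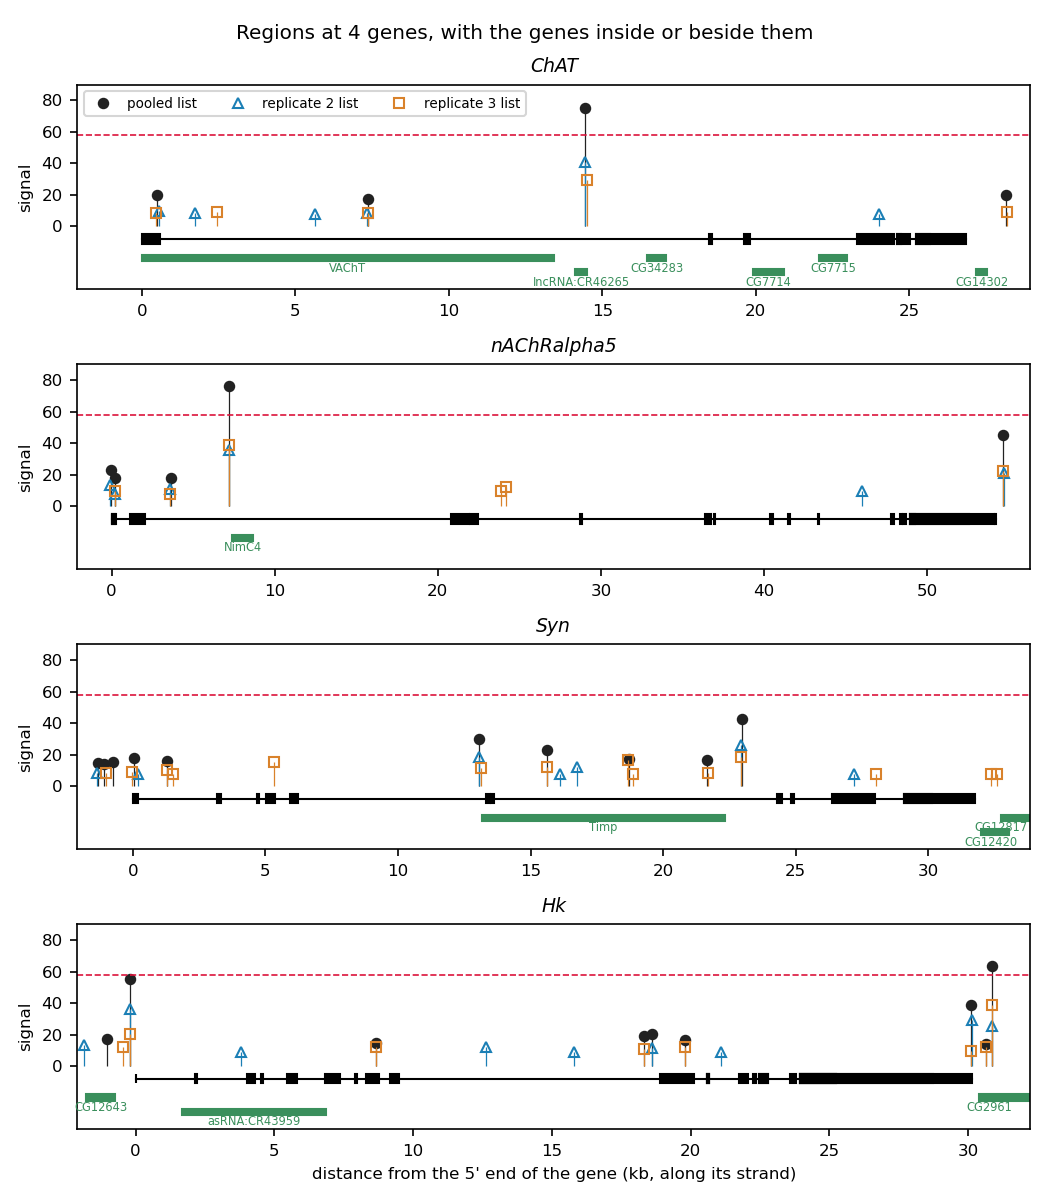
Signal of each region (y axis, the authors' value) along ChAT, nAChRalpha5, Syn and Hk and 2 kb to either side (x axis, kb from the 5′ end of the gene along its strand). Black circles are pooled candidates, blue triangles replicate 2 and orange squares replicate 3, the dashed line is the lowest pooled signal of an IDR peak (57.8, for the circles only), black boxes are exons of the member, and green boxes are other annotated genes. The circle above the line inside ChAT stands at lncRNA:CR46265, the one inside nAChRalpha5 at the start of NimC4, and the one beyond the 3′ end of Hk (signal 63.7) lies in CG2961, outside the Hk gene.

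With all 30000 candidates counted, the members' shares near a TSS were close to those of all genes. A pooled candidate lay within 1 kb of a TSS in 25 of 43 members (58.1%, interval 43.3 to 71.6%), beside 62.6% of all genes. In replicate 2 this held for 28 members (65.1%, beside 62.5%) and in replicate 3 for 27 members (62.8%, beside 62.4%). The members' candidates ranked lower, however. The best pooled rank near a TSS had a median of 12035 over the 25 members with one and of 6919 over the 8728 genes with one, and in the replicates' own lists the medians were 16912 and 19757 for members against 7222 and 6921 for all genes. A pooled candidate of rank 10000 or better was near a TSS in 10 members (23.3%, interval 13.2 to 37.7%), beside 39.3% of all genes, and one with a q-value at or below 0.05 in 6 members (14.0%, interval 6.56 to 27.3%), beside 31.1%.

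**Figure D2:**
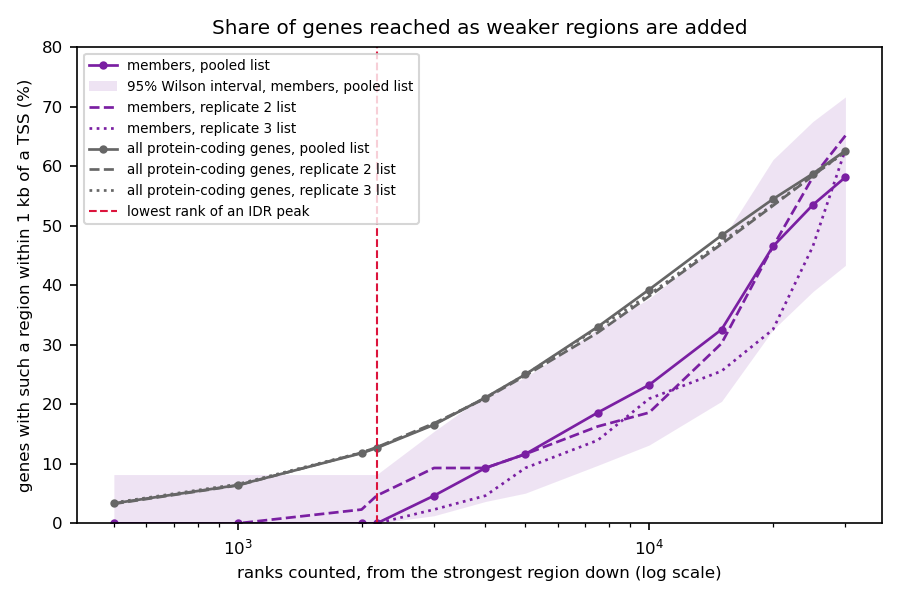
Share of genes (y axis, %) with a region within 1 kb of a TSS as ranks are added from the strongest down (x axis, log scale), for the 43 members (purple) and all 13945 protein-coding genes (grey), in the pooled list (solid), replicate 2 (dashed) and replicate 3 (dotted). The shaded band is the 95% Wilson interval of the members' pooled share. At 10000 ranks the pooled curves stand at 23.3% and 39.3%, and at all 30000 ranks at 58.1% and 62.6%. The sets are not matched for gene length.

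The members are taken by role below, and differences between roles were not tested. The shares and ranks of all genes set beside them are over genes of all lengths. Among the 10 channel genes, 5 had a pooled candidate near a TSS, beside 62.6% of all genes. The median best rank was 6553, beside 6919 over all genes with one. In this group Hk, the beta subunit that associates with Shaker potassium channels, had the strongest candidate near a TSS of any member, at chrX:10263462-10263925. Its pooled rank was 2368 with a signal of 55.2, just under the lowest IDR signal of 57.8, and its summit lay 209 bp upstream of an Hk TSS. Replicate 2 had it at rank 1620 with a signal of 36.0, and replicate 3 at rank 4345 with a signal of 20.4, so it was among the 2177 strongest in one library and not in the other.

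Ih, the hyperpolarization-activated cation channel, had a candidate at rank 3662 with a signal of 43.6 at chr2R:14275266-14275729, 632 bp upstream of a TSS. Its ranks were 2527 (signal 28.8) in replicate 2 and 9208 (signal 14.3) in replicate 3. The ether-a-go-go potassium channel gene eag had one at rank 6553 with a signal of 31.6 at chrX:14955086-14955549, 159 bp upstream of its TSS, with ranks of 6152 (signal 18.2) and 13021 (signal 12.1). In slo, the calcium-activated potassium channel, the candidate at chr3R:24661518-24661981 ranked 10082 with a signal of 25.2. It lay 741 bp upstream of the slo TSS and 101 bp from that of Ppox, and it had rank 12050 in replicate 2 and no match within 100 bp in replicate 3. The fifth, Shab, a delayed-rectifier potassium channel, followed at rank 18535.

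The remaining 5 channel genes had no pooled candidate near a TSS. They were cac, the synaptic calcium channel, para, the voltage-gated sodium channel, and the potassium channels Sh, Shal and Shaw. For cac, replicate 2 alone listed a region, at rank 28880, and for the other 4 neither replicate listed one.

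In the release machinery, 7 of 11 members had a pooled candidate near a TSS, beside 62.6% of all genes. The median best rank was 14877, beside 6919 over all genes with one. Syx1A, the plasma membrane SNARE syntaxin, had the strongest, at chr3R:24106246-24106709, with rank 3941 and a signal of 42.0, 715 bp upstream of its TSS. The summit of this region lay in an intron of eIF4EHP, a gene that overlaps Syx1A. Replicate 2 had this region at rank 2162 with a signal of 31.3 and replicate 3 at rank 5950 with a signal of 17.6. A further Syx1A candidate had its summit 7 bp downstream of the TSS, at rank 4985 with a signal of 36.8, and it ranked 5855 and 4743 in the replicates.

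Cadps, the vesicle priming factor CAPS, had a candidate at chr4:1230774-1231237, 169 bp downstream of a TSS, with rank 7081 and a signal of 30.4. It ranked 6748 (signal 17.4) in replicate 2 and had no match within 100 bp in replicate 3. The candidate of cpx, complexin, at chr3R:4280038-4280501, 49 bp downstream of a TSS, ranked 9032 with a signal of 26.8, and 9199 (signal 14.3) in replicate 3 with no match in replicate 2. Lower pooled ranks were found for the vesicle priming gene unc-13 (14877), the vesicle phosphoprotein gene Syn (19632), the active zone scaffold gene brp (25391) and the vesicle GTPase gene Rab3 (25834).

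No list had a region near a TSS of Rim, an active zone scaffold gene, or of nSyb and Snap25, which encode the vesicle SNARE synaptobrevin and the third SNARE partner. Syt1, the calcium sensor of release, had regions in both replicate lists at ranks 19912 and 25686 and none in the pooled list. Genes of the SNARE complex stood at both ends of the order, with Syx1A behind Hk, SerT and Ih alone in rank, and nSyb and Snap25 without a region near a TSS or in the gene body in any list.

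Of the 8 genes for transmitter synthesis, vesicle loading and reuptake, 6 had a pooled candidate near a TSS, beside 62.6% of all genes. The median best rank was 15880, beside 6919 over all genes with one. SerT, the serotonin transporter, ranked second among the members, with rank 2526 and a signal of 53.3 at chr2R:24411574-24412037. The summit was 732 bp upstream of a SerT TSS and 64 bp from the TSS of CG45069. Replicate 2 had it at rank 4572 with a signal of 21.3, and replicate 3 at rank 2445 with a signal of 27.2. For ple, tyrosine hydroxylase, the candidate at chr3L:6719492-6719955 ranked 11241 with a signal of 23.9, 199 bp upstream of the TSS, and it ranked 20030 (signal 9.78) in replicate 2 with no match within 100 bp in replicate 3.

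ChAT and VAChT, the vesicular acetylcholine transporter nested in the ChAT gene, share their first TSS and so share a single candidate there, at rank 15880 with a signal of 19.9. The dopamine transporter gene DAT stood at rank 18584, with its summit 175 bp from the TSS of CG4945, and Gad1, which makes GABA, at rank 24409. No list had a region near a TSS of the vesicular transporters VGlut, for glutamate, and Vmat, for monoamines.

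Of the 12 receptor genes, 5 had a pooled candidate near a TSS, beside 62.6% of all genes, with a median best rank of 12035, beside 6919. These genes encode nicotinic acetylcholine receptor subunits of neurons and 3 glutamate receptor subunits of the muscle side of the neuromuscular junction. nAChRalpha7 had the strongest, at chrX:19348800-19349263, with rank 4779 and a signal of 37.6, 585 bp upstream of its TSS. It ranked 2973 (signal 26.6) in replicate 2, and replicate 3 had no region within 100 bp of that summit. In nAChRalpha6, the candidate at chr2L:9886913-9887376 ranked 7229 with a signal of 30.0. It had the opposite pattern, with rank 3453 (signal 22.9) in replicate 3 and no match in replicate 2. Its summit lay 895 bp upstream of the nAChRalpha6 TSS and 860 bp from the TSS of Fkbp59. It was also within the long noncoding RNA gene lncRNA:CR44701, 106 bp from the start of that RNA.

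The candidates of nAChRalpha5 (rank 12035), nAChRbeta2 (15634, 250 bp from the TSS of DZIP1) and GluRIIC (24470) were weaker. GluRIIA, nAChRalpha1 and nAChRalpha3 had a region near a TSS in replicate 3 alone, nAChRalpha2 in replicate 2 alone, and nAChRbeta1 in both replicates but not in the pooled list. GluRIIB and nAChRalpha4 had none in any list. The 2 further neuronal genes both had a pooled candidate: nrv3, a sodium-potassium pump beta subunit, at chr2L:21379926-21380389, 25 bp downstream of a TSS, with rank 9094 and a signal of 26.6 (17487 with a signal of 10.6 in replicate 2, 8565 with 14.8 in replicate 3), and futsch, a microtubule-associated protein, at rank 21705.

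**Figure D3:**
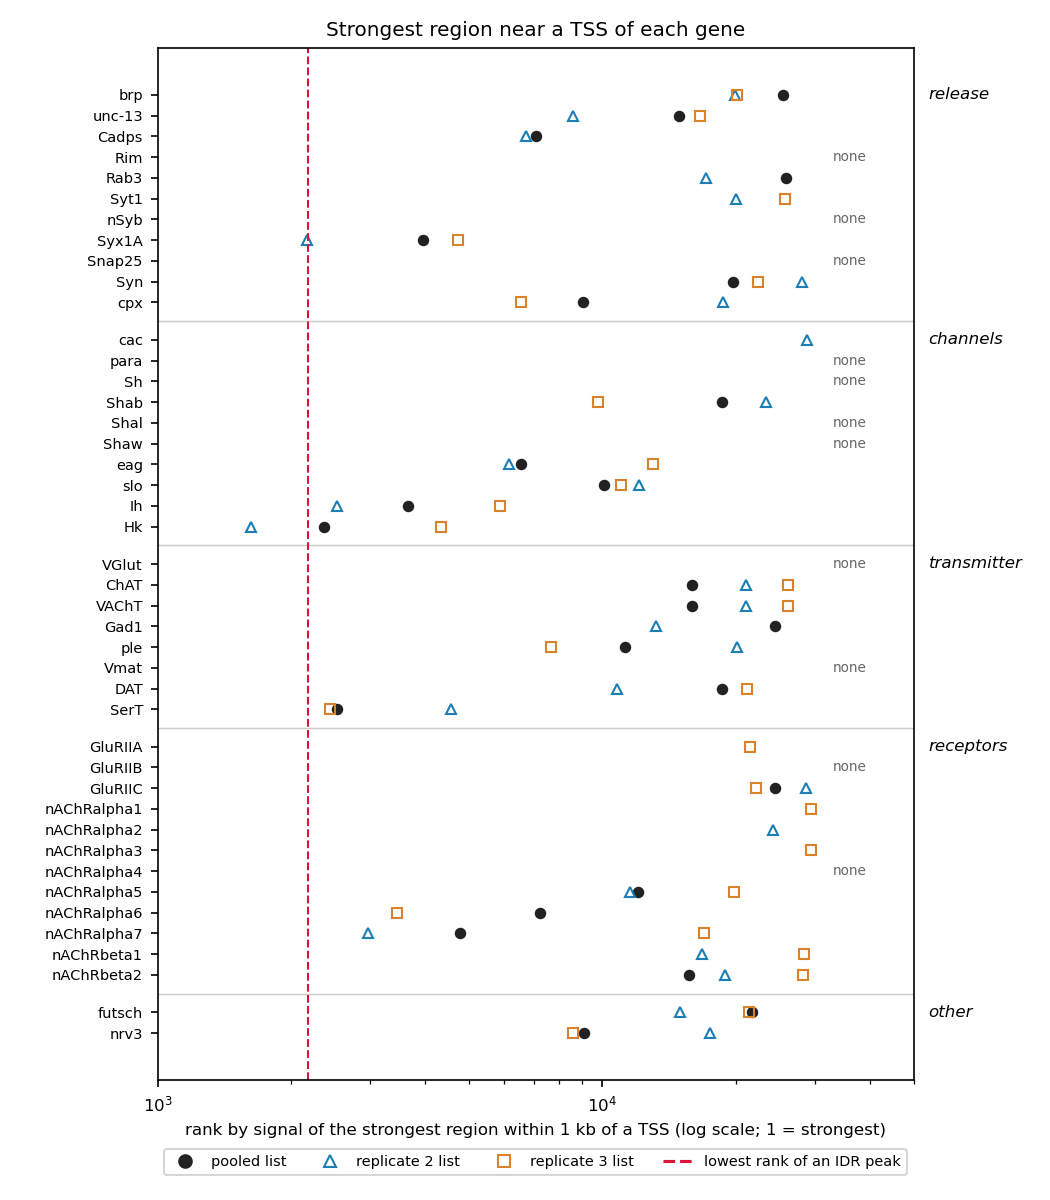
Rank of the strongest region within 1 kb of a TSS (x axis, log scale, rank 1 is the strongest) for each of the 43 members, grouped by role, in the pooled list (black circles), replicate 2 (blue triangles) and replicate 3 (orange squares). The dashed line marks rank 2177, the lowest rank of an IDR peak in the pooled list. No circle lies left of it, the triangles of Hk and Syx1A do, and 11 members have no region in any list.

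The agreement between the libraries was partial. Of the 25 members with one, 10 had a region of each replicate within 100 bp of the strongest summit (40%), beside 45.2% of the 6962 genes whose strongest candidate near a TSS was no IDR peak. Those 10 were Hk, SerT, Ih, Syx1A, eag, nrv3, nAChRbeta2, GluRIIC and the pair ChAT and VAChT. Summits lay upstream of the member's TSS in 15 genes and downstream in 10, at a median distance of 199 bp, and within 500 bp in 17. In 6 of the 25 another protein-coding gene was listed as having the nearest TSS, and these were SerT, nAChRalpha6, slo, nAChRbeta2, DAT and VAChT, the last with the start it shares with ChAT.

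Altogether 21 members had a region near a TSS in all 3 candidate lists (48.8%, beside 51.8% of all genes), and 11 had none in any (25.6%, beside 27.6%). With the gene body added, 10 members had no pooled candidate (23.3%), beside 32.5% of all genes: nSyb, Snap25, cac, Shaw, VGlut, Vmat, GluRIIA, GluRIIB, nAChRalpha2 and nAChRalpha4. The count depended on the list: without replicate 2, in replicate 3's own candidates, it was 6, and without replicate 3 it was 5. Over all 3 candidate lists, 2 members had no region (4.65%), nSyb and Snap25, beside 22.8% of all genes. The shares with the gene body added are not matched for length, and the members are long genes. In each length class described below, members had a pooled candidate in the gene body less often than all genes. A missing entry says that a gene had no region among the 30000 of a list, and the lowest signals listed were 13.6 in the pooled list, 7.56 in replicate 2 and 7.50 in replicate 3.

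Gene length enters each count over gene bodies, and the members are long genes, with a median of 24.4 kb beside 2.17 kb over all protein-coding genes. A pooled candidate lay in the body of 29 members (67.4%), beside 52.7% of all genes. The counts were 34 in replicate 2, beside 52.2%, and 33 in replicate 3, beside 54.7%. Per length the order was the other way, with 0.613 pooled candidates per 10 kb of member gene body and 2.49 per 10 kb over all genes. The replicates' own lists gave 0.657 and 0.669 for members and 2.46 and 2.51 for all genes.

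Within length classes the members stayed below all genes in density. Over 20 kb, 25 members had 0.526 pooled candidates per 10 kb against 1.78 for all such genes, from 5 to 20 kb, 14 members had 1.35 against 3.24, and under 5 kb, 4 members had 2.51 against 3.49. An IDR summit in the gene body was found in 2 of the 25 longest members (8.00%, interval 2.22 to 25.0%), beside 31.3% of genes over 20 kb, in 0 of 14 beside 16.0% and in 0 of 4 beside 2.62%. Near a TSS, IDR summits were at 21.5% of genes over 20 kb, 19.7% of those from 5 to 20 kb and 10.2% of shorter ones, and at none of the members in any class. The limits that a count of 0 allows there were 12% for 25 members and 21.4% for 14, and 4 members set no useful limit.

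Pooled candidates near a TSS were found in 15 of the 25 longest members, beside 76.6%, in 8 of 14 beside 80.1% and in 2 of 4 beside 57.1%. In the gene body the counts were 20 of 25 beside 88.6%, 8 of 14 beside 82.6% and 1 of 4 beside 42.1%. For the share near a TSS, the members' interval ran from 15.0 to 85.0% in the shortest class and held the share of all genes. From 5 to 20 kb it ran from 32.6 to 78.6%, below the 80.1% of all genes, and over 20 kb from 40.7 to 76.6%, with an upper bound that met the share of all genes to 3 digits.

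**Figure D4:**
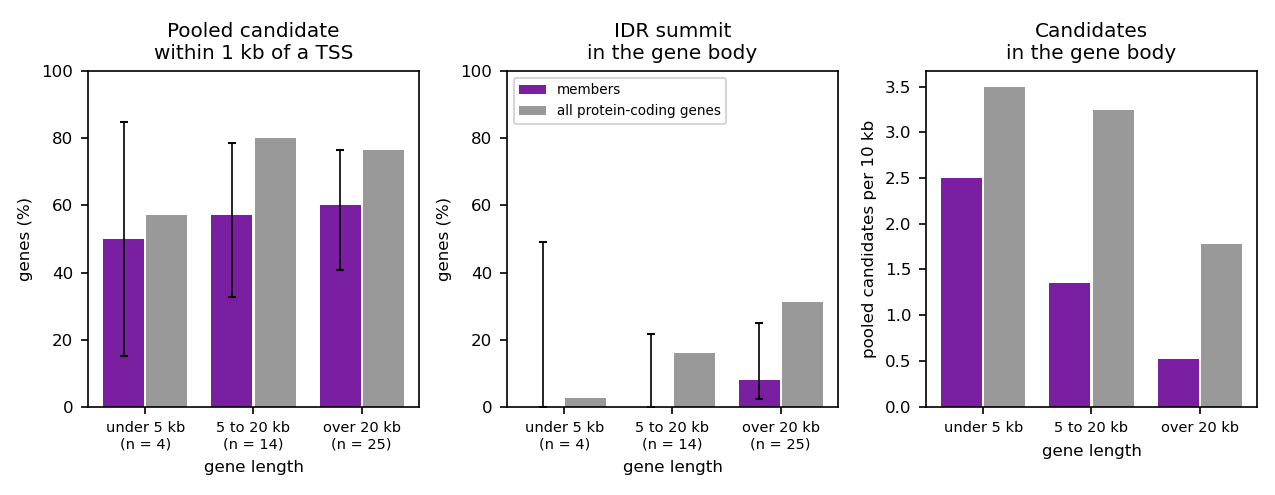
Members (purple) and all protein-coding genes (grey) by gene length: the share with a pooled candidate within 1 kb of a TSS (left, %), the share with an IDR summit in the gene body (middle, %) and the number of pooled candidates per 10 kb of gene body (right). Error bars are 95% Wilson intervals of the members' shares, n is the number of members, and the density of members is below that of all genes in each class (0.526 against 1.78 per 10 kb over 20 kb).

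The members' gene bodies held 97 distinct pooled candidates. In the members' own annotation 67 of them lay in introns, 16 in 5′ UTRs, 9 in coding sequence and 5 in 3′ UTRs. For 30 of the 97 the nearest protein-coding TSS was that of another gene. A q-value at or below 0.05 was given to 6.19% of them, beside 19.7% of all pooled candidates in protein-coding gene bodies. Both replicates had a region within 100 bp at 24 of the 97, and neither had one at 10.

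Apart from the IDR peaks in ChAT and nAChRalpha5, the strongest candidate in a gene body was in Syn, at chr3R:10213422-10213885, with rank 3878 and a signal of 42.3. It ranked 3037 (signal 26.3) in replicate 2 and 5306 (signal 18.6) in replicate 3. Its summit was in a Syn intron, 22965 bp from the Syn TSS and 647 bp from that of Timp, a metalloproteinase inhibitor gene nested in Syn. The libraries differed at Shal, whose candidate at chr3L:19575655-19576118, in an intron 8681 bp downstream of its TSS, had pooled rank 4463 with a signal of 39.1. Replicate 3 had it at rank 2607 with a signal of 26.3, and replicate 2 at rank 17310 with a signal of 10.6.

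At the 3′ end of Hk, a candidate at rank 4487 lay in the Hk 3′ UTR and 305 bp from the TSS of CG2961, and here replicate 2 was the stronger, at rank 2437 against 19922. In Sh, the Shaker potassium channel gene, the strongest candidate (rank 7029) lay 20 bp from the TSS of CG6867, a gene in a Sh intron, and ranked 29388 in replicate 2 and 4399 in replicate 3. nAChRalpha1 held 9 candidates, the largest number in a member, none of them better than rank 11177.

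The nearest IDR summit to a member's TSS lay at a median of 30.7 kb, beside 16.4 kb over all protein-coding genes. In 5 members (11.6%, interval 5.07 to 24.5%) it lay within 5 kb, beside 25.8% of all genes. These were Hk at 2431 bp, Rim at 2649 bp, nAChRbeta2 at 3084 bp, Syx1A at 3276 bp and eag at 4419 bp. In none of the 43 was the member's own TSS the nearest protein-coding TSS to that summit, a count not made over all genes. With 2177 peaks for 13945 genes, most genes cannot hold the TSS nearest to a peak, so this 0 alone does not set the members apart. For nAChRbeta2 the summit lay 80 bp from the TSS of Pp1alpha-96A, and for Syx1A 79 bp from that of eIF4EHP, which encodes a cap-binding protein. Near Shal, 6068 bp from its TSS, stood the IDR peak of rank 2, which lay 112 bp from the TSS of CG14100. Snap25 lay farthest from an IDR summit, at 1195 kb, and nAChRalpha4 at 328 kb. Both distances are to the same peak on chromosome 3L, 91 bp from the TSS of Chro, so they are not separate observations.

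The 6 motifs were searched within 100 bp of the summits on both strands, with these letters: GCM octamers ATGCGGGT, ATGCGGGC, ATACGGGT and ATACGGGC, the DNA replication-related element (DRE) TATCGATA, the GAGA factor motif GAGAGAG, the homeodomain core TAATTA, the Zelda motif CAGGTAG and the E-box CAGCTG. The members had 115 pooled candidates near a TSS or in a gene body. A GCM octamer was at 2 of these 115 (1.74%, interval 0.478 to 6.12%), beside 1.54% of all 30000 pooled candidates and 0.781% of IDR peaks. These were the candidate of cpx at rank 9032 and one in a Sh intron at rank 18940, where the summit lay in a coding exon of the overlapping gene CG12672, both with ATACGGG as their first 7 letters, as the sequences above show. Neither was an IDR peak.

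GAGAGAG was at 9 of the 115 (7.83%, interval 4.17 to 14.2%), beside 4.12% of all candidates and 5.51% of IDR peaks. It was at 9 of the 97 candidates in gene bodies (9.28%), a share not counted over all gene bodies. Of the 44 candidates near a TSS, some of them also in gene bodies, 1 held it (2.27%, interval 0.402 to 11.8%). The DRE, which lay in the eag sequence above, was at 2 (1.74%), beside 1.67% and 4.04%. TAATTA was at 11 (9.57%) beside 10.6% and 14.2%, CAGGTAG at 3 (2.61%) beside 1.37% and 1.19%, and CAGCTG at 13 (11.3%) beside 11.6% and 11.5%. For each motif the members' interval held the share of all candidates, except for GAGAGAG, where that share, 4.12%, was below the lower bound of 4.17%. Candidates in the same gene are not independent, and no test was made.

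Counted in the reference sequence, with no regard to candidates, GCM octamers were about as dense in member gene bodies as in all genes, at 0.545 and 0.554 per 10 kb. Of the 88 octamers in member gene bodies, 2 had a pooled candidate whose summit lay within 100 bp (2.27%), beside 7.94% over all protein-coding genes. Pooled candidates of any kind were also sparser in member gene bodies, at 0.613 per 10 kb beside 2.49. The lower share of octamers with a candidate therefore cannot be read as particular to octamers. Near a TSS, 8 of 43 members held an octamer (18.6%, interval 9.74 to 32.6%), beside 12.4% of all genes, and 1 of their 9 octamers had a candidate (11.1%), beside 13.8% of the 1863 octamers near a TSS over all genes. Snap25 and Sh each held 9 octamers in the gene body, with a candidate at 0 and 1 of them.

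A list of 56 further genes of the same pathways was set beside the members, none of them a member. Near a TSS, an IDR summit was found in 1 of them (1.79%, interval 0.316 to 9.45%), beside 12.7% of all genes. This was sei, a potassium channel gene of the ERG family. Its peak had rank 1477 with a signal of 70.6 and lay 90 bp upstream of a sei TSS in a sei intron. The best region near a sei TSS ranked 1828 in replicate 2 and 1605 in replicate 3. In the gene body an IDR summit was found in 4 of the 56 (7.14%), beside 7.08% of all genes. These shares are not matched for length, and the 56 genes had a median of 14.1 kb, beside 2.17 kb. Over 20 kb it was found in 2 of 22 (9.09%), beside 31.3% of all such genes. From 5 to 20 kb it was found in 2 of 21 (9.52%), beside 16.0%, and under 5 kb in 0 of 13, beside 2.62%. The 4 genes with such a summit were sei, KCNQ, Irk1 and Ca-beta, all channel genes by the list. The KCNQ summit lay 4797 bp from a KCNQ TSS and 743 bp from that of mlt. The Ca-beta summit, at rank 1902, lay in a Ca-beta intron 4289 bp from a Ca-beta TSS, which was the nearest protein-coding TSS. For Irk1, the summit lay 1806 bp from its TSS and as far from that of CG46310. A pooled candidate near a TSS was found in 31 of the 56 (55.4%), close to the share in the members, beside 62.6% of all genes. The median best rank there was 9463, beside 6919.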

How the data were processed

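Anti-GFP ChIP-seq regions from 2 libraries were analysed, grouped by their labels. Per the deposited file lists, the authors derived each replicate's candidates from its alignments and a further file, the pooled candidates from both replicates, and the IDR list from these 3. The signal of each region, its deposited −log10 q-value and its summit offset are the authors' values. For the aligner, the caller of peaks and the threshold of the IDR step, names and values are not given in the sources used, and the dm3 lists were not analysed here. How the authors scaled or background-corrected the signal bears on each rank and was not tested.

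Regions were joined to the Ensembl 115 annotation in dm6 coordinates (Python 3.11.15, numpy 2.4.6, pandas 2.3.3, statsmodels 0.14.6, matplotlib 3.10.9), after checking that they lay within the reference lengths. Transposable elements were not counted as genes. Coordinates are 1-based, and a distance is measured from the nearest TSS of the gene. Classes such as promoter (within 500 bp of a TSS) follow the annotation. The joining step was tested on simulated regions. Shares carry 95% Wilson intervals, and a count of 0 is limited by 3 counts of the total.

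The members, role groups, other synaptic genes and motifs were chosen with earlier results of these data known, so no test was made over them and counts stand beside all protein-coding genes. Each member is named, with full values for members with an IDR summit and for the 12 best pooled ranks near a TSS. KCNQ, Irk1 and Ca-beta, and body candidates other than IDR peaks, were named after their values were seen. Alternatives changed the TSS distance, the overlap rule, the number of regions, the q-value, the replicate used and the summit distance.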

Additional observations from a re-analysis of the deposited data

How the results depend on the processing

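Of 42 alternative values over 8 results, 23 stayed within 1.5 times the reported count or the spread between replicates, and 19 moved. Members with an IDR summit near a TSS were 0 in the reported count and 5 within 5 kb, and from 0 to 2 with a single replicate's strongest regions. Members with one in the gene body went from 2 to 0 among the 1000 strongest IDR peaks, and to 0 where the nearest TSS had to be the member's own, an alternative chosen after seeing the data. With candidates at a q-value at or below 0.05, 6 members had one near a TSS, 6 had one in the gene body, 33 had none in either, and the density in gene bodies fell from 0.0613 to 0.00372 per kb. With the 10000 strongest candidates these counts were 10, 11 and 28. A single replicate's list left from 5 to 6 members with none. The median best rank was 15880 within 500 bp and from 16912 to 19757 in single replicates, and the density there was from 0.0657 to 0.0669 per kb. With 250 bp between summits, 17 members were matched in both replicates. No paired analysis was possible because the samples form 1 group. With 2 libraries of unknown depth and no untagged library, a region absent from a list says nothing about weaker binding.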
